A study of Mus musculus with 4 samples.

Results

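Reelin is a large secreted glycoprotein that guides the placement of migrating neurons in the developing cortex. It binds the lipoprotein receptors VLDLR and ApoER2 (the product of Lrp8) on the receiving cell, and the bound receptors pass the signal to the intracellular adaptor DAB1, which Src family kinases phosphorylate. In the embryonic cortex the main source is the Cajal-Retzius cell of the marginal zone, an early neuron that expresses p73 (Trp73) and LIM homeodomain factors, whereas after birth GABAergic interneurons also make Reelin. The genes described here are the ligand Reln, the receptors Vldlr and Lrp8, the adaptor Dab1, the factors Trp73, Lhx5, Lhx1 and Nhlh2, and the secreted marker Ndnf. They were picked by name, and all 9 were found among the 55421 genes listed for each library.

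The RNA came from prefrontal cortex (PFC) of wild-type C57BL/6 mice at postnatal day 0, dissociated and cultured for 10 days in neurobasal medium with B27. The group with FGF2 received 5 ng/mL of this growth factor, and the group without FGF2 had the same medium alone. Each group has 2 libraries, which are replicates 1 and 2 here. Their titles number them B1 and B2. Whether they came from separate cultures, or from pooled pups, is not given in the sources used here. The study's methods name 2 human ages as biological replicates and the others as technical, in a section that lists human cultures only. The p-values may therefore measure technical spread only. The cultures hold mixed cells of the whole dissociated PFC, and with bulk RNA fewer cells of a type and less RNA per cell cannot be told apart. The counts on genes totalled 9166432 to 10799886 per library. All 8 listed forebrain and cortical genes passed the expression filter, Emx1 with only 26 to 62 counts. Their summed level was 656 to 755 CPM, the count relative to the TMM-scaled library total. Of the Purkinje list, Pcp2 and Skor2 had 0 counts in every library, while Calb1, Foxp2, Itpr1 and Gad1 passed the filter.

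Promoters are shown for the ligand, both receptors and the alternative starts of Trp73, and for Lrp8 only the one nearest the gene start. RefSeq (GRCm38.p6) gives promoters for 7 of the 9 genes, as the 250 bases before and 50 bases after a start. Capitals mark the GC box (GGGCGG) and the ETS core (CCGGAA), read on both strands. ETS factors are known as end points of FGF and ERK signalling.
Reln, chr5:22344656-22344955, minus strand: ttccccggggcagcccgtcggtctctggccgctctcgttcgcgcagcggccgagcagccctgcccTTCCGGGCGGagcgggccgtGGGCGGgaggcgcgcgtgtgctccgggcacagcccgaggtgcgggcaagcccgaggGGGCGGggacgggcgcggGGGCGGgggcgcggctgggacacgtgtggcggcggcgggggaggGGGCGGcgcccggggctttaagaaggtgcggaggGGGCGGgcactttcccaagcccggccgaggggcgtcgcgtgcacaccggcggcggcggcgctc
Lrp8, chr4:107802635-107802934, plus strand: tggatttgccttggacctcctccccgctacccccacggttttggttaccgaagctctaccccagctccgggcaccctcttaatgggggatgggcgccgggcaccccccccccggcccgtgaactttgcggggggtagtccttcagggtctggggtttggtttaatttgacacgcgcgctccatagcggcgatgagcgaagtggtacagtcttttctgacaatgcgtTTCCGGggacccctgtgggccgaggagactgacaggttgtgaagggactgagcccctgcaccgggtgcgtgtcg
Vldlr upstream start, chr19:27216234-27216533, plus strand: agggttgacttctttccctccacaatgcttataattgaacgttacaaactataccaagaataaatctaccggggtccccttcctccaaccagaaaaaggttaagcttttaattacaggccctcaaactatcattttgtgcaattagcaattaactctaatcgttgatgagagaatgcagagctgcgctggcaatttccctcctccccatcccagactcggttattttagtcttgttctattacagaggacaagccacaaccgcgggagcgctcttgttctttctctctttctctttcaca
Vldlr downstream start, chr19:27216770-27217069, plus strand: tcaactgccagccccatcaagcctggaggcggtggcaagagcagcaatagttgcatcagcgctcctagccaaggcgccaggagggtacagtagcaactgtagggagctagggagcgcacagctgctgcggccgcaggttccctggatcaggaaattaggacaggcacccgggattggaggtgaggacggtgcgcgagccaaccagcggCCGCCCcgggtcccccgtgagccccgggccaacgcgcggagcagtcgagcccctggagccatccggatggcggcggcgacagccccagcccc
Trp73 upstream start, chr4:154139826-154140125, minus strand: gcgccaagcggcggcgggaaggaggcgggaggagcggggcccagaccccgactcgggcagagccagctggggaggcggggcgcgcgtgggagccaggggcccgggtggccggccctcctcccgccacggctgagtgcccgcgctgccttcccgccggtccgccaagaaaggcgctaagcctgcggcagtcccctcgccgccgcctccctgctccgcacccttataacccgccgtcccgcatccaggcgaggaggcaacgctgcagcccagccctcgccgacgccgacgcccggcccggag
Trp73 downstream start, chr4:154097124-154097423, minus strand: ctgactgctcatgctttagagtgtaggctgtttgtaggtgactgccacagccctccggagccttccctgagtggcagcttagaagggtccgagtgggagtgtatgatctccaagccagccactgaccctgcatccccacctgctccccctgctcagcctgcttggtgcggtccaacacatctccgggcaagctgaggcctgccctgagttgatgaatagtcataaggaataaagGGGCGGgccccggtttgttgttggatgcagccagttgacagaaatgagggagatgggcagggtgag

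The promoter of Reln holds 6 GC boxes and 1 ETS core, which overlaps a GC box, and 80.7% of its bases are G or C. A GC box is found in 35.7% and an ETS core in 14.9% of the 32851 promoters of this length in the table, whose median G and C content is 52.7%. The Lrp8 promoter shown holds 1 ETS core and no GC box, the upstream Vldlr promoter neither (43% G and C), and the downstream Vldlr promoter 1 GC box. The other Lrp8 promoters, not shown, hold neither. Of the Dab1 promoters, also not shown, the one nearest the gene start holds neither and the other holds 1 of each. The Trp73 starts lie 42702 bases apart. The downstream one falls in the intron after exon 3 of the annotated transcript with 14 exons, and it opens the shorter p73 forms that lack the amino-terminal activation domain. The deposited values are counts per gene, so reads from these starts were not separated. A match of letters is a description of the window and no evidence of binding.

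The libraries were compared to ask how FGF2 changed the transcription of the Reelin pathway in the cultures. Reln, Lrp8 and Dab1 fell with FGF2, Ndnf rose, Vldlr and Trp73 did not pass the test, and Lhx5, Lhx1 and Nhlh2 had too few counts to be tested. The threshold was a p-value of 0.05 in the quasi-likelihood test of edgeR, adjusted over all tested genes by the Benjamini-Hochberg method. Of all 17144 tested genes, 40.5% passed it, 19.9% with a lower and 20.7% with a higher level with FGF2. DESeq2, run as an alternative, passed 26% of all genes, 12.5% with a lower level, and the same 3 members fell. The median log2 fold change over all tested genes was -0.00082, a value that TMM scaling itself sets near 0.

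Reln, the ligand, lies on chromosome 5 of mm10 from 21884454 to 22344702 on the minus strand. It had 227 and 221 CPM with FGF2 and 355 and 352 CPM without FGF2, from 2057 to 3813 counts. Both libraries with FGF2 were therefore well below both libraries without it, as were those of 33.4% of all tested genes. Reln fell by 0.66 on the log2 scale (standard error 0.04, edgeR adjusted p = 4.13e-49), a level 36.7% lower. Of the tested genes, 7.65% had a more negative fold change. An antisense gene, Gm10475, shares 246 exonic bases with Reln and had 0 counts in every library. For its human fetal PFC cultures the paper counts RELN among the genes raised by FGF2, the opposite direction. Those cultures differ from these in species and stage, and the reason for the difference was not tested.

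Lrp8 encodes ApoER2, the receptor that is largely neuronal. It lies on chromosome 4 from 107802261 to 107876840, and it had 206 and 213 CPM with FGF2 and 328 and 321 CPM without FGF2. Again the groups did not overlap. Lrp8 fell by 0.63 on the log2 scale (standard error 0.04, edgeR adjusted p = 9.86e-43), which is 35.4% lower.

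Vldlr, the other receptor, is also made by glia and by cells outside the brain. It lies on chromosome 19 from 27216484 to 27254231 and had 133 and 135 CPM with FGF2 and 128 and 132 CPM without FGF2. Both values with FGF2 were just above both values without it, which was the case for 33.6% of all tested genes. The log2 fold change of Vldlr was 0.04 (edgeR adjusted p = 0.596), and its 95% interval ran from -0.07 to 0.16. A change of more than 1.12-fold upward or below 0.952 of the level without FGF2 thus lay outside the interval.

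The balance of the receptors was measured directly as the log2 level of Lrp8 minus that of Vldlr in each library. It was 0.63 and 0.66 with FGF2 and 1.35 and 1.28 without FGF2. Lrp8 stood above Vldlr in every library, and by less with FGF2. The difference of the group means was -0.67 (p = 0.333 by a two-sided exact permutation test, below which a design of this size cannot go).

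Dab1, the adaptor that binds the tails of both receptors, lies on chromosome 4 from 103619359 to 104744844. It had 150 and 151 CPM with FGF2 and 179 and 189 CPM without FGF2. The libraries with FGF2 were nearly equal and below both others. Dab1 fell by 0.29 on the log2 scale (standard error 0.05, edgeR adjusted p = 3.16e-07), or 18.3%. The fitted changes of Reln, Lrp8 and Dab1 had 95% intervals of -0.75 to -0.57, -0.72 to -0.54 and -0.40 to -0.19, so that of Dab1 did not reach those of the ligand and ApoER2. A difference between these genes was not itself tested.

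**Figure D1:**
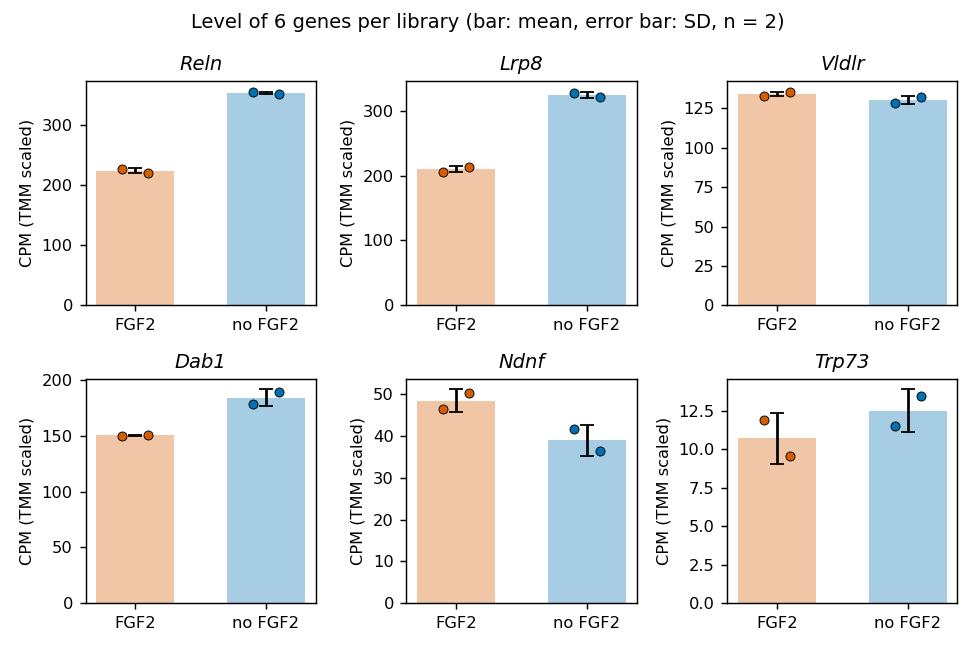
Level in CPM (vertical axes, each from 0) of the 6 genes that passed the expression filter, with a point per library, bars for the mean and error bars for the SD of 2 libraries with FGF2 (orange) and without FGF2 (blue). Reln, Lrp8 and Dab1 are lower with FGF2 without overlap, Vldlr is almost level, Ndnf is higher, and the Trp73 points overlap.

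Ndnf encodes a secreted neurotrophic factor and marks both Cajal-Retzius cells and layer 1 neurogliaform interneurons. The gene lies on chromosome 6 from 65671590 to 65712326 and had 46.6 and 50.4 CPM with FGF2 and 41.7 and 36.4 CPM without FGF2. It was the only one of the 6 tested genes that rose, by a log2 fold change of 0.32 (standard error 0.09, edgeR adjusted p = 0.00317). The call was lost with DESeq2 (log2 fold change 0.31, adjusted p = 0.0724), when FGF2 replicate 2 was left out (0.25, edgeR adjusted p = 0.0672) and when replicate 2 of the other group was left out (0.22, edgeR adjusted p = 0.173).

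**Figure D2:**
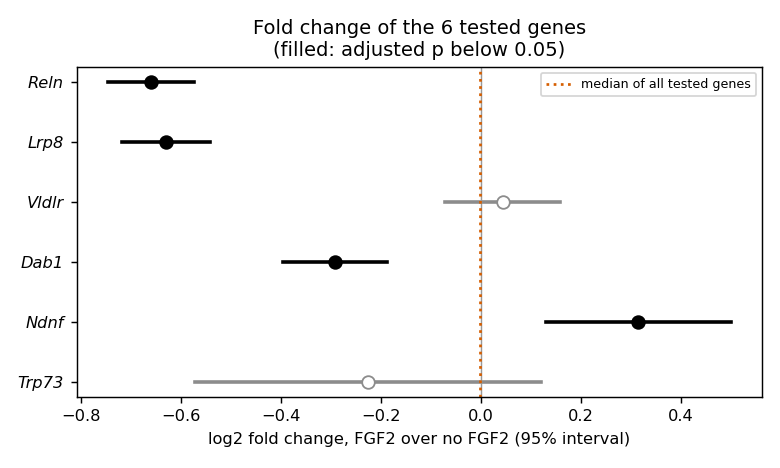
Log2 fold change of FGF2 over no FGF2 (horizontal axis) with its 95% interval for the 6 tested genes, filled where the adjusted p-value is below 0.05, and the median of all tested genes as a dotted line. Reln and Lrp8 lie near -0.65, Dab1 at -0.29, Ndnf at 0.32, and the intervals of Vldlr and Trp73 cross 0.

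Trp73, on chromosome 4 from 154056253 to 154140208, encodes p73, which acts in Cajal-Retzius cells and also in multiciliated ependymal cells. It was measured at a low level, with 108 and 94 counts in the FGF2 libraries and 121 and 146 in the others (11.9 and 9.56 against 11.5 and 13.5 CPM). The groups overlapped. Its log2 fold change was -0.23 with a 95% interval from -0.57 to 0.12 (edgeR adjusted p = 0.327). This interval overlapped that of Lrp8, and with 1 library left out the value ranged from -0.39 to -0.07. The antisense gene Trp73os had 0 counts in every library. Genes of multiciliated cells were present beside Trp73. All 12 on that list passed the expression filter, with a summed level of 800 and 817 CPM with FGF2 and 738 and 777 CPM without FGF2, and Foxj1, the master factor of motile cilia, had 1404 to 1523 counts per library. Of these 12 genes 5 were higher and 2 lower with FGF2, with a median log2 fold change of 0.21. The shares over all tested genes were 20.7% higher and 19.9% lower. The part of these cells in the Trp73 counts was not tested.

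The other factors were close to empty. Nhlh2, a basic helix-loop-helix factor of young neurons, reached 1 and 3 counts in the FGF2 libraries and 4 and 8 in the others. Lhx1, a LIM homeodomain factor, reached 2 and 0 counts in the FGF2 libraries and 2 and 6 in the others. Its relative Lhx5, which acts in the formation of Cajal-Retzius cells, reached 0 and 2 counts in the FGF2 libraries and 1 in each of the others. Together these 3 genes had 3 to 15 counts in a library that held 2057 to 3813 counts of Reln. A count of 0 allows up to 3 counts, or 0.277 to 0.331 CPM depending on the library, which covers counting error only, and no fold change is given for these genes.

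Of the 4 Cajal-Retzius factors, Lhx1, Lhx5 and Nhlh2 were thus at or near 0, and Trp73 was measured at 94 to 146 counts per library. Which cells the Reln counts came from was not tested. Among other genes used as markers of these cells, Nhlh1 had 1 count in all 4 libraries together, Ebf1 4 to 12, Ebf2 1 to 12, Ebf3 8 to 16 and Lhx9 1 to 10 counts per library. Genes of the cortical hem and septum, where Cajal-Retzius cells arise in the embryo, were nearly absent. None of the 6 passed the expression filter, Wnt3a and Dbx1 had 0 counts in every library, and the highest count of the others was 12, for Wnt2b. The tissue was PFC taken after birth, so counts of these source-region genes give no measure of whether Cajal-Retzius cells were present.

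**Figure D3:**
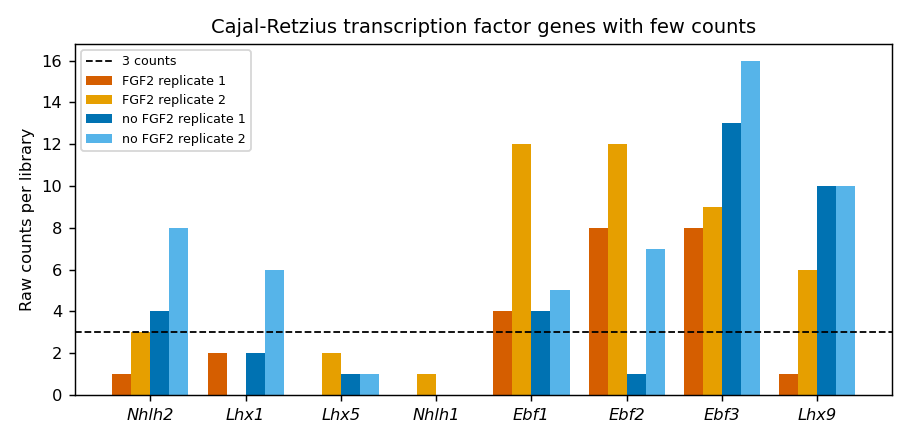
Raw counts (vertical axis) of 8 Cajal-Retzius transcription factor genes in each of the 4 libraries, with a dashed line at 3 counts. Lhx5 and Nhlh1 stay at or below 2 counts, and the highest bar is Ebf3 with 16.

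Several markers of that list with measurable levels are genes that other cells also use, and which cells their counts came from was not tested. Of 16 listed, 12 were tested, 8 were lower, 4 did not pass and none was higher with FGF2. The shares over all tested genes were 19.9% lower and 20.7% higher. The list had a median log2 fold change of -0.60. The largest changes were those of Calb2, which encodes the calcium-binding protein calretinin of several interneuron types, of Cacna2d2, a calcium channel subunit, and of Tbr1, a factor of deep layer excitatory neurons. Calb2 had 99.3 and 91.5 CPM with FGF2 and 223 and 227 CPM without FGF2, and it fell by 1.24 on the log2 scale (edgeR adjusted p = 1.72e-105). Cacna2d2 fell by 1.11 and Tbr1 fell by 1.07, with edgeR adjusted p-values of 1.39e-19 and 2.16e-20. Emx2, a progenitor factor, was the most abundant gene of the list that did not pass, at 9.98 to 11.9 CPM.

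Markers of interneurons were listed because these cells can also make Reelin. Of 16 GABAergic and layer 1 interneuron genes, 15 were tested, with a median log2 fold change of -0.67. With FGF2, 13 were lower and none was higher, beside 19.9% lower and 20.7% higher of all tested genes. The summed level of the list was 902 and 917 CPM with FGF2 and 1473 and 1514 CPM without FGF2. Sst, the somatostatin gene of a class of interneurons that can hold Reelin, fell by 1.57, Lhx6, a factor of medial ganglionic eminence interneurons, fell by 1.51, and Npy, the neuropeptide Y gene, fell by 1.45 on the log2 scale, with edgeR adjusted p-values of 1.69e-65, 2.55e-17 and 8.04e-30. Nxph1 did not pass, with 25.6 and 26.9 CPM with FGF2 and 30.4 CPM in both libraries without it. The marker Lamp5 of neurogliaform cells had 42 to 62 counts and did not pass either (edgeR adjusted p = 0.955).

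Gad1 and Gad2, the genes of the GABA-synthesizing enzymes, had log2 fold changes of -0.67 and -0.72, and that of Reln was -0.66. The log2 level of Reln minus the mean of Gad1 and Gad2 was 0.21 and 0.09 with FGF2 and 0.13 and 0.10 without FGF2, so the groups overlapped. This is a description only, since the genes were chosen with earlier results known, and the tested genes of the interneuron list ranged from -1.57 to 0.03 in log2 fold change. Pan-neuronal genes were lower as well, with 10 of 12 lower, 1 higher and a median of -0.43. The shares over all tested genes were 19.9% lower and 20.7% higher. Their summed level was 3789 and 3923 CPM with FGF2 and 5516 and 5496 CPM without FGF2. What part the neuronal share of the cultures had in the fall of Reln, Lrp8 and Dab1 was not tested.

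Glial markers moved the other way. Of 10 astrocyte genes 8 were higher and 1 lower (median 0.41, summed level 12630 to 12750 CPM with FGF2 and 7742 to 7793 CPM without), and 9 of 9 tested oligodendrocyte lineage genes were higher (median 2.05, 1864 and 1873 against 560 and 569 CPM). Microglia, endothelial and meningeal or mural lists were low, with summed levels of 17.2 and 20.6 against 9.14 and 9.42 CPM for microglia, 8.03 to 10.4 against 5.71 to 9.51 CPM for endothelium and 64.4 to 68 against 54.2 to 54.5 CPM for the last. Cldn5, the tight junction marker of endothelium, had 0 counts in every library. Of their tested genes, 3 of 5 microglial ones were higher, 1 of 3 endothelial ones was higher and 1 lower, and 2 of 8 meningeal or mural ones were higher and 3 lower, with medians of 0.96, -0.16 and 0.04. Of 8 forebrain genes 1 was lower (median -0.07). Of 4 tested Purkinje list genes, of which Gad1 is shared with the interneuron list, 3 were lower (median -0.80). All these counts stand beside 20.7% higher and 19.9% lower of all tested genes.

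The members differed widely in level when compared per kilobase of exon. In the cultures with FGF2 the order was Lrp8 (19.6 and 20.3 CPM per kilobase), Dab1 (19.0 in both), Vldlr (13.2 and 13.4), Reln (9.55 and 9.30), Ndnf (4.61 and 4.99) and Trp73 (2.15 and 1.73), and no neighbours among these overlapped. Without FGF2, Reln at a mean of 14.9 lay above Vldlr at a mean of 12.9 CPM per kilobase, while Lrp8 (31.2 and 30.6) and Dab1 (22.6 and 24.0) kept the first places. In CPM, with no division by length, Reln lay above Vldlr in every library. Nhlh2, Lhx1 and Lhx5 were at or below 0.136 CPM per kilobase in every library, and their order could not be told from counts this low. The length used is the union of the exons of all annotated transcripts, which for Reln is 23738 bases over 15 transcripts and is not the length of one mRNA, so the place of Reln in this order depends on that choice.

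The remaining pathway genes were described by lists, and the activity of the pathway was not measured. Among proteases of Reelin and other extracellular ligands of its receptors, 11 of 12 genes were tested, with a median log2 fold change of 0.39. With FGF2, 5 were higher and 3 lower, beside 20.7% higher and 19.9% lower of all tested genes. Thbs2, a thrombospondin, had 36.4 and 33.7 CPM with FGF2 and 6.95 and 10.3 CPM without FGF2, and rose by 2.02 on the log2 scale (edgeR adjusted p = 5.18e-44). Thbs1, the other thrombospondin listed, fell by 0.54 (edgeR adjusted p = 1.90e-06). Adamts4, a metalloprotease able to cleave Reelin, rose by 1.95 (20.9 and 19.4 against 5.14 and 5.27 CPM, edgeR adjusted p = 6.98e-25). Selenop, the selenium carrier taken up through ApoER2, rose by 1.42 (edgeR adjusted p = 2.65e-95). By contrast Adamts3, the main protease that cuts Reelin in its amino-terminal part, fell by 0.64 (edgeR adjusted p = 8.99e-15). Furin, a proprotein convertase, did not pass (edgeR adjusted p = 0.859).

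Of 10 genes for chaperones, turnover factors and coreceptors of the receptors, 7 did not pass, 2 were lower and 1 was higher (median -0.02). Among all tested genes 40.5% passed, so this count is near the overall share. Efnb3 and Efnb2, ephrins that can cluster Reelin receptors, fell by 0.83 and 0.41, whereas Itgb1, an integrin chain, rose by 0.67 (199 and 221 against 141 and 125 CPM, edgeR adjusted p = 1.88e-34). App, which shares adaptors with the receptors, had 651 to 678 CPM over the 4 libraries and did not pass.

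Of 30 kinases, adaptors and effectors acting with DAB1, all were tested, with a median log2 fold change of -0.16. With FGF2, 15 were lower, 6 higher and 9 did not pass, beside 19.9% lower and 20.7% higher of all tested genes. Nectin1, an adhesion molecule of the contacts between Cajal-Retzius cells and migrating neurons, fell by 1.03 (edgeR adjusted p = 1.81e-66). It had 94.3 and 88.9 CPM with FGF2 and 181 and 193 CPM without FGF2. Nectin3, the other nectin listed, rose by 0.18 (edgeR adjusted p = 0.0318). Cdk5r1, the p35 activator of CDK5, fell by 0.84, and Limk1, a kinase that acts on cofilin, fell by 0.83 on the log2 scale (edgeR adjusted p = 3.73e-50 and 4.00e-18). The cofilin gene Cfl1 itself did not pass (edgeR adjusted p = 0.117). The kinases that phosphorylate DAB1 went in opposite directions, with Fyn higher by 0.63 (edgeR adjusted p = 2.71e-47) and Src lower by 0.26 on the log2 scale. Pafah1b1, the LIS1 gene that binds phosphorylated DAB1 complexes and dynein, fell by 0.13. Of 6 genes of the ubiquitin ligases that remove DAB1, 1 was lower and 5 did not pass (median -0.09). Among all tested genes 19.9% were lower, so this count is near the overall share. The lower one, Socs7, the substrate receptor, fell by 0.39 (94.6 and 106 against 133 and 130 CPM, edgeR adjusted p = 5.09e-09), and Cbl had 212 to 238 CPM and did not pass.

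**Figure D4:**
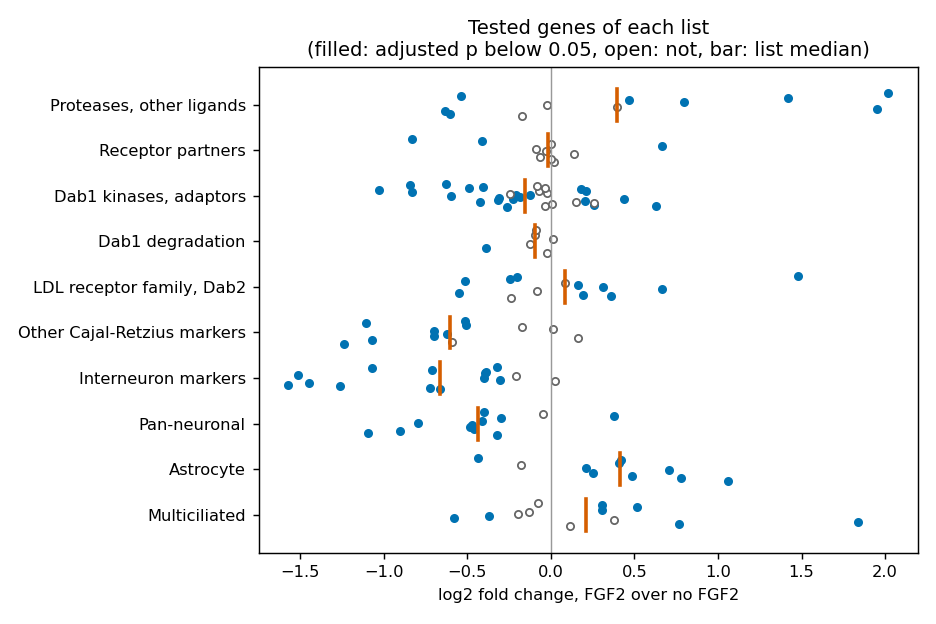
Log2 fold change of FGF2 over no FGF2 (horizontal axis) for the tested genes of 10 lists, filled where the adjusted p-value is below 0.05, with a bar at each list median. The interneuron (median -0.67), other Cajal-Retzius (-0.60) and pan-neuronal (-0.43) lists lie left of 0, the astrocyte list (0.41) right of it, and the lists of extracellular factors and of DAB1 partners spread to both sides.

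Of the 12650 other tested genes with a mean of at least 5 CPM, those with the pattern over the 4 libraries most like that of Reln were Cit, Pde10a and Paqr9. Their Euclidean distances of centred log2 level were 0.0058, 0.022 and 0.025, and their log2 fold changes were -0.66, -0.65 and -0.68. With only 4 libraries such closeness is common, since 175 genes lay within a distance of 0.1.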

How the data were processed

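Total RNA of mouse PFC cultures was sequenced as paired reads, in 2 libraries with and 2 without FGF2. The authors mapped clean reads to mm10 with HISAT2 (2.1.0), used Samtools to keep a mapping quality of at least 20 and obtained read counts from HTSeq (0.11.2), and the deposited values are raw counts. The annotation release and strand setting are not given in the sources used here. Removal of reads with low mapping quality can lower genes with near-identical copies, and of the 9 genes only Reln shared a stretch of at least 100 bases at 95% identity with another gene (Gm10475, BLAST 2.17.0).

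Identifiers were matched to GENCODE M21 (55240 of 55421), and exonic length was the union of exons. The 5 tallies naming no gene were left out of totals, of which read pairs in no feature made up 43.2% to 45.9% of all tallied pairs and ambiguous pairs 1.47% to 1.76%. Counts totalled 9166432 to 10799886 per library, which limits genes near 0. edgeR 4.0.16 in R 4.3.3 was used with TMM scaling, its expression filter, the robust quasi-likelihood test and Benjamini-Hochberg adjustment over 17144 genes. CPM values use the TMM-scaled totals, and standard errors come from the test statistic. Single differences used log2 CPM (prior count 1), with an exact permutation test (SciPy 1.17.1) for the receptors.

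Replicates differed by more than counting noise (chi-square per degree of freedom 2.28 with and 1.76 without FGF2). The fitted spread beyond counting noise was small, with a biological coefficient of variation of 3.9%. These values do not tell technical replicates from separate cultures. The fits were tested on simulated data with 200 changed genes. There edgeR called 157 of 200 at a 2-fold change, 127 at 1.5-fold and 47 at 1.2-fold. At 1.2-fold, 11 of the 200 estimates had the wrong sign. A change of that size was thus often not called.

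The members and lists were chosen with earlier results of these data known. Genes named were the members, Gad1 and Gad2, from each pathway list the 3 with the largest change among those called at a mean of at least 5 CPM and the most abundant not called, and the 3 most like Reln. Adamts3, Thbs1, Fyn, Src, Nectin3, Pafah1b1, Lamp5, Foxj1, Cldn5, Emx1, the Purkinje list genes and near-empty markers were named after their values were seen. Of 203 list genes 202 were matched, Ca8 being the exception. Alternatives were RLE and total count scaling, no filter, at least 10 counts in every library, DESeq2 1.42.0, limma-voom (limma 3.58.1), a replicate block, each library left out, and a prior count of 0.1.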

Additional observations from a re-analysis of the deposited data

How the results depend on the processing

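Reln, Lrp8 and Dab1 kept their fall and passed under each of the 11 alternatives, with log2 fold changes of -0.68 to -0.64, -0.66 to -0.61 and -0.34 to -0.25 over the 10 without a block, and adjusted p-values of at most 4.27e-25, 2.43e-21 and 0.00305. Vldlr (0.02 to 0.06) and Trp73 (-0.39 to -0.07) did not pass under any of them. Ndnf was at 0.22 to 0.41 and lost its call in 3, so the number of members called higher was 0 with DESeq2 and 0 to 1 with a library left out, while 3 were called lower in each.

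With DESeq2, 2313 genes were called higher and 2143 lower (26% of all tested) in place of 3541 and 3408. With DESeq2 the calls also moved to 5 lower in the other Cajal-Retzius list, 1 higher in the microglial, 0 lower in the endothelial and 1 lower in the multiciliated list. The endothelial list also had 0 lower without a filter, with limma-voom and with the block, and 0 higher with at least 10 counts in every library, where the meningeal or mural list had 1 lower, since fewer genes were tested. The other causes were not tested.

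With a library left out, calls over all genes were 2642 to 3145 higher and 2558 to 3054 lower. Calls ranged from 0 to 1 higher and 1 to 2 lower for forebrain, 0 to 1 higher for pan-neuronal, 1 to 3 higher for microglial, 0 to 1 lower for endothelial and 1 to 3 lower for multiciliated genes. The difference between Lrp8 and Vldlr was -0.71 to -0.64, and that between Reln and the GABA genes -0.023 to 0.091. Furin ranged from -0.11 to 0.046 and turned its sign without replicate 1 of the cultures with FGF2. Of 28 genes named from the lists, 26 kept direction and call under every alternative.

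Whether equal replicate numbers pair the libraries is not given in the sources used here, and 2 libraries per group cannot settle it. Across 12651 genes the deviations of equally numbered libraries from their group means had a correlation of 0.0048. With the replicate number as a block, 3476 genes were called higher and 3338 lower, and 3 members were called lower and 1 higher, as without it.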

Other observations

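Other members of the LDL receptor family moved in both directions. Of 12 relatives of the Reelin receptors and Dab2, a paralog of Dab1, all 13 were tested, with a median log2 fold change of 0.08. With FGF2, 6 were higher and 4 lower, beside 20.7% higher and 19.9% lower of all tested genes. Dab2 had 29.4 and 32.7 CPM with FGF2 and 12.3 and 10.1 CPM without FGF2 and rose by 1.48 on the log2 scale (edgeR adjusted p = 3.56e-25), the opposite direction to Dab1. Lrp4, a receptor known from the neuromuscular synapse, rose by 0.67 (edgeR adjusted p = 7.31e-37), and Lrp2, the megalin gene, fell by 0.55 (edgeR adjusted p = 7.20e-06). Lrp10 did not pass (edgeR adjusted p = 0.443). Lrp1, the endocytic receptor of glia and neurons, had the highest counts of the list, 11202 to 13506 per library, and a log2 fold change of 0.36, and it was named after its values were seen.

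Of the relatives of Trp73, Trp53 had 75.8 and 73 CPM with FGF2 and 48.5 and 48.7 CPM without FGF2 and rose by 0.61 on the log2 scale (edgeR adjusted p = 9.96e-13). Trp63, the other relative, was nearly absent, at 8 counts in each FGF2 library and 20 and 19 in the others, and did not pass (log2 fold change -1.10, edgeR adjusted p = 0.0933).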
